A study of Mus musculus with 2 samples.

Results

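Keratin genes were examined in RNA sequencing of cells sorted from mouse breast tumours. The members were all genes whose symbol in the deposited tables is Krt followed by a number and at most 1 letter, which left out the keratin-associated Krtap genes. This gave 51 of 22558 genes, 28 of type I and 23 of type II. The tumours came from mice of the inbred strain FVB and were dissociated, sorted by flow cytometry at once and not treated. The first library held the sorted fraction named tumour-initiating cells (TIC), and the second held non-tumorigenic cells (NTC). The sorting markers, the transgene or other origin of the tumours, the age of the mice and the number of tumours pooled were not given in the labels used here. Each group had 1 library, so no replicate error, test or p-value exists, and each difference below is between these 2 libraries. Levels are in FPKM (fragments per kilobase of transcript and sequencing depth), which are scaled to transcript length so that genes can be compared. The RNA was amplified before library construction, which can change a gene's share of reads, so ratios between genes are approximate.

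Keratins are the intermediate filament proteins of epithelial cells. Type I (acidic) and type II (basic) chains assemble only as mixed pairs, so an epithelial cell makes members of both types. In the mammary gland Krt5 and Krt14 mark the outer, basal and myoepithelial layer, and Krt8, Krt18, Krt19 and Krt7 mark the inner, luminal layer. Other members are known from the upper epidermis, the hair follicle, mucosa or wounded skin.

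A few genes dominated the keratins of each library, led by the basal keratin Krt5 in TIC and the luminal keratins Krt19, Krt18 and Krt8 in NTC. Of the top 5 in TIC, Krt5, Krt14 and Krt17 were listed as basal, Krt23 as simple and luminal, and Krt42 as neither. Krt5 had 782.8 FPKM in TIC and was the keratin with the highest level there, followed by Krt42 with 238.9, Krt23 with 210.4, Krt14 with 134.3 and Krt17 with 80.7 FPKM. In NTC the order was Krt19 with 1176 FPKM, Krt18 with 713.3, Krt8 with 314.2, Krt7 with 55.0 and Krt79 with 23.6 FPKM. The top 5 genes held 94.4% of the summed keratin FPKM in TIC and 97.4% in NTC, and no gene was in both sets of 5. That rests on the cut at 5, since Krt79 ranked 5 in NTC and 6 in TIC, where its level was higher, at 40.8 FPKM. Among all genes of its library, Krt5 ranked 25 in TIC, and Krt19 and Krt18 ranked 24 and 48 in NTC.

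The gene starts of the leading members are shown because these genes set the difference between the libraries. RefSeq promoter entries of build GRCm38.p6 matched 36 of the 51 members and 10 of the 16 with a mean of at least 1 FPKM. Each run below covers 250 bases before and 30 bases after the annotated start, 5′ to 3′ on the gene's strand. Krt5 and Krt42 are the highest type II and type I genes of TIC, and Krt8 and Krt18 are the highest type II gene of NTC and its highest type I gene with an entry. The regions are chr15:101712876-101713155 on the minus strand for Krt5, chr11:100269922-100270201 on the minus strand for Krt42, chr15:102004313-102004592 on the minus strand for Krt8 and chr15:102027966-102028245 on the plus strand for Krt18. Capitals mark matches, on either strand, to the TATA box (TATAAA), the Sp1 box (GGGCGG), the AP-1 site (TGANTCA), the AP-2 site (GCCNNNGGC) and an ETS site (AGGAAG).
Krt5: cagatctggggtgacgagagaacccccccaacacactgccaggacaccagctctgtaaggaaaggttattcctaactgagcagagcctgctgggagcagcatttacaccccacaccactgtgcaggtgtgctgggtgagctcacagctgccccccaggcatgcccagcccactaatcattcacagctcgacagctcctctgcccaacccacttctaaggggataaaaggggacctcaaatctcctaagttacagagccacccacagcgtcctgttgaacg
Krt42: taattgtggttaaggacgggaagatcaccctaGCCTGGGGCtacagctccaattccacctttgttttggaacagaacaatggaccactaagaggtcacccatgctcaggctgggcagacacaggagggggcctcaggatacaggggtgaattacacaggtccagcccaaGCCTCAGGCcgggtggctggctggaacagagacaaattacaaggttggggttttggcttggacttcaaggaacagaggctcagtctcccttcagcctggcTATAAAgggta
Krt8: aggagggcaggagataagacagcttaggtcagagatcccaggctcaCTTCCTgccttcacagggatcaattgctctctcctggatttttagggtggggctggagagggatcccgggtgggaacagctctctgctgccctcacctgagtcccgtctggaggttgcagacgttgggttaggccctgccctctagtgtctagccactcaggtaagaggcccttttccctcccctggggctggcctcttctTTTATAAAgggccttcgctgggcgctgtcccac
Krt18: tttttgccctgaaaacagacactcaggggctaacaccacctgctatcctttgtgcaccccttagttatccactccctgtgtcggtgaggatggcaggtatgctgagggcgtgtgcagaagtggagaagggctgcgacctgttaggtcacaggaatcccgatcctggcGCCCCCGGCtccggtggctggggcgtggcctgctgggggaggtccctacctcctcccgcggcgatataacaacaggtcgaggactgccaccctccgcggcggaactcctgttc
Krt5 held none of these motifs in this window. Krt42 held 2 AP-2 matches and 1 TATA box match, which lay within the 30 bases after the annotated start. Krt8 held 1 ETS match and a TATA box that matched on both strands, overlapped itself and spanned the annotated start. Krt18 held 1 AP-2 match. The TATA box was present in 19 of 37 keratin promoter entries, against 13.1% of 32851 promoters of the same length. The Sp1 box was present in 2 of the 37 against 34.7% of all, the ETS site in 14 against 32.9%, the AP-2 site in 7 against 15.4% and the AP-1 site in 2 against 7.46%. Among the 10 entries of members with a mean of at least 1 FPKM, the TATA box was found in Krt42, Krt71 and Krt10, which had higher levels in TIC, and in Krt8, which had a higher level in NTC. These matches describe the letters only, at any position of the window.

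Of the 51 members, 16 had a mean over both libraries of at least 1 FPKM and are called measured. Krt80 lay just inside this limit with a mean of 1.34 FPKM, and Krt6b just outside with 0.927 FPKM. The ratio of TIC to NTC is given as log2((TIC + 1)/(NTC + 1)), which understates the difference for low genes. At least 2-fold higher in TIC were 6 of the 16 (Krt5, Krt42, Krt23, Krt71, Krt17 and Krt14), where 14.6% of the 12004 measured genes were. Another 6 were lower by as much (Krt19, Krt18, Krt8, Krt7, Krt80 and Krt6a), where 13.8% of measured genes were. The other 4, Krt79, Krt10, Krt15 and Krt16, lay within 2-fold. A difference of 16-fold or more was seen for 7 of the 16, against 3.07% of all measured genes. The median log2 ratio of the 16 was 0.05, against -0.16 over all measured genes, but the median of their absolute log2 ratios was 3.31, against 0.54. Without the members listed as having similar copies (Krt14, Krt16, Krt17, Krt42 and Krt6a among those measured), 3 of 11 were higher and 5 lower.

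**Figure D1:**
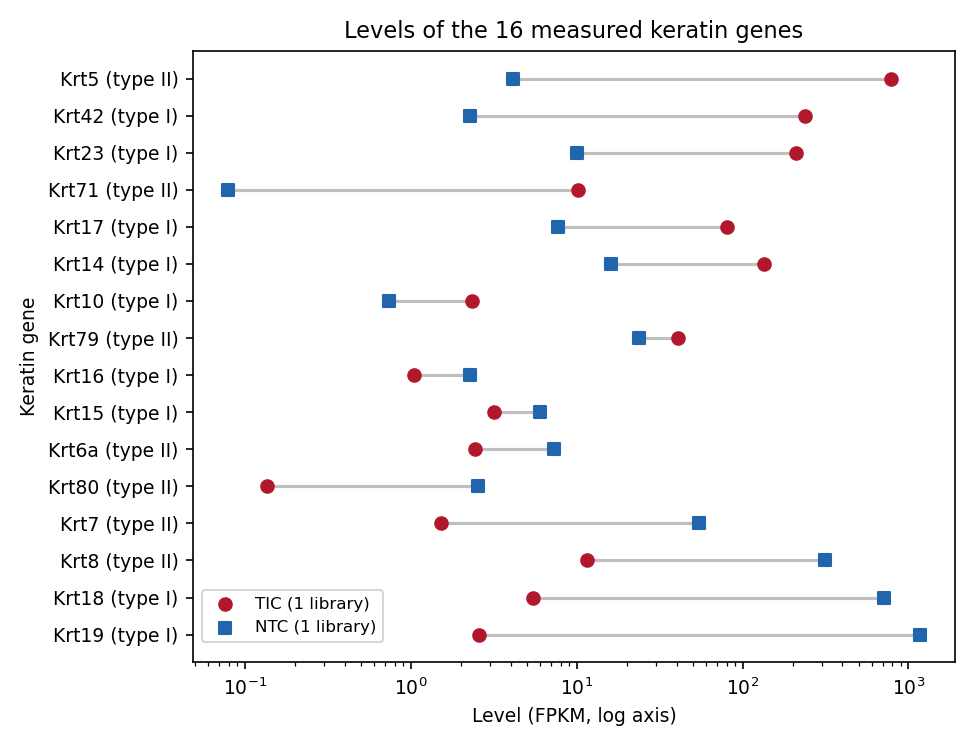
Level in FPKM (log axis) of each of the 16 measured keratin genes in the TIC library (circles) and the NTC library (squares), ordered by log2 ratio, with a grey line joining the pair. Krt5 at the top has 782.8 against 4.13 FPKM and Krt19 at the bottom 2.56 against 1176 FPKM, while Krt79 lies close to equal at 40.8 against 23.6 FPKM.

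Keratins of the basal list summed to 1001 FPKM in TIC, of a keratin sum of 1533 FPKM, and Krt5 alone held 51.1% of that keratin sum. Krt5, the type II chain of basal cells (chromosome 15, 101537501 to 101543322, build mm9), had 782.8 FPKM in TIC and 4.13 in NTC, a log2 ratio of 7.25. Krt14, its usual type I partner (chromosome 11, 100064476 to 100068824), had 134.3 against 16.01 FPKM and a log2 ratio of 2.99. Krt17, a type I chain of basal and appendage cells that is also made on injury, had 80.7 against 7.70 FPKM and a log2 ratio of 3.23. The difference in Krt5 was therefore much larger than that in Krt14 and Krt17, which kept levels above Krt5 in NTC. Krt15, a type I chain of basal keratinocytes and of hair follicle stem cells, did not follow the other basal keratins and had 3.19 FPKM in TIC and 5.99 in NTC. Of the 4 genes of the basal list, 3 were thus higher in TIC by at least 2-fold and none was lower by as much. The shares over all measured genes were 14.6% and 13.8%, and the list was chosen with earlier results of these data known.

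Krt42, a rodent type I keratin (chromosome 11, 100124196 to 100131185), had 238.9 FPKM in TIC and 2.28 in NTC, a log2 ratio of 6.19. In TIC it was the type I keratin with the highest level, 35.1% of the type I sum, above Krt14 with 19.7%. Krt42, Krt17, Krt16 and Krt14 lie side by side and resemble each other, so the uniqueness of their sequence was examined. Of the 50-base windows of the Krt42 transcript in GENCODE M21, 0.268% also occurred in a transcript of another gene, which was Krt17. The share was 3.99% for Krt17, 14.4% for Krt14 and 37.6% for Krt16, of which 25.2% lay in the gene Gm11597 and 12.4% in Krt14. The longest identical stretch of the coding sequences of Krt42 and Krt17 was 53 bases. How reads that match several genes were assigned is not given in the labels or files used here.

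Krt23, a type I chain known from simple epithelia (chromosome 11, 99339287 to 99354424), had 210.4 FPKM in TIC and 10.02 in NTC, a log2 ratio of 4.26. It was placed in the list of simple and luminal keratins, and it was the only one of the 5 measured genes of that list with a higher level in TIC. No 50-base window of its transcript occurred in another gene. It held 30.9% of the type I sum in TIC and 0.518% in NTC.

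The luminal keratins made up most of the NTC set. Krt19, a type I chain without the usual tail domain (chromosome 11, 100002126 to 100007233), had 2.56 FPKM in TIC and 1176 in NTC, a log2 ratio of -8.37, the largest difference of any member in either direction. Krt18, a type I chain of simple epithelia (chromosome 15, 101858647 to 101862457), had 5.45 against 713.3 FPKM and a log2 ratio of -6.79. Krt8, the type II partner of Krt18 (chromosome 15, 101827142 to 101834773), had 11.6 against 314.2 FPKM and a log2 ratio of -4.65. Krt7, a type II chain of glands and ducts (chromosome 15, 101242834 to 101258237), had 1.51 against 55.0 FPKM and a log2 ratio of -4.48. Krt8 stood highest of these in TIC, where its level was 4.52 times that of Krt19, whereas in NTC Krt19 stood 3.74 times above Krt8. Of the windows of the Krt8 transcript, 26.9% also occurred in the pseudogene Krt8-ps, and none of Krt19 or Krt7 and 0.720% of Krt18 occurred elsewhere.

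Krt20, a type I chain of the gut and urothelium and the last gene of this list, had 0.526 FPKM in TIC with 0 listed in NTC. Its TIC level corresponds to about 18.8 reads. That estimate rests on the low values of genes with a single coding transcript, which clustered at a product of FPKM and transcript length in kb of 0.0538 in TIC and 0.0524 in NTC, taken as what 1 read is worth. A level of 1 FPKM then stands for about 18.6 reads per kb in TIC and 19.1 in NTC. The estimate is rough, since the cluster was sought between 0.04 and 0.07 and holds 84 and 96 genes. An exact 0 in tables of this kind can be a failed estimate, so it is given only as listed at 0.

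Summed over all members, keratin levels were 1533 FPKM in TIC and 2343 FPKM in NTC, 1.53 times as high in NTC. These were 0.461% and 0.622% of the FPKM of all genes. The type II sum was 853.0 FPKM in TIC against 408.8 in NTC, and the type I sum was 680.3 against 1934 FPKM. The ratio of type I to type II was thus 0.798 in TIC and 4.73 in NTC. Krt5 alone held 91.8% of the type II sum in TIC, and without the highest gene of each type the ratio there turned to 6.29. Krt8 held 76.9% of the type II sum in NTC, and without the 8 members with more than 25% of their 50-base windows in another gene (Krt8, Krt6a and Krt16 among those measured) the ratio in NTC was 22.4.

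Textbook pairs differed in how close their levels were. Krt5 was 5.83 times as high as Krt14 in TIC, and with Krt14, Krt17, Krt42 and Krt23 added up to 664.3 FPKM it was 1.18 times as high as these type I chains together. In NTC Krt14 was 3.88 times as high as Krt5. Krt8 was 2.13 times as high as Krt18 in TIC, and Krt18 was 2.27 times as high as Krt8 in NTC. Krt18 and Krt19 together had 1889 FPKM in NTC against 369.2 FPKM for Krt7 and Krt8, so the type I luminal chains stood 5.12 times above the type II chains.

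**Figure D2:**
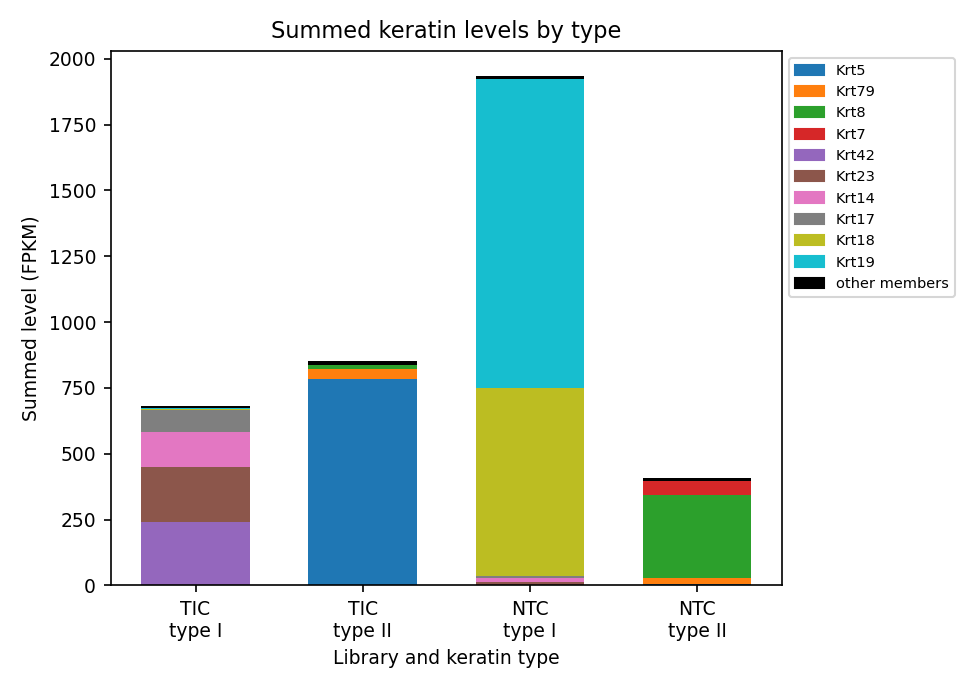
Summed FPKM of the type I and type II keratins in each library (linear axis from 0), divided by member, with members outside the 10 named shown in black. The TIC type II bar of 853.0 FPKM is mostly Krt5, the TIC type I bar of 680.3 is shared by Krt42, Krt23, Krt14 and Krt17, and the NTC type I bar of 1934 is mostly Krt19 and Krt18.

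Apart from Krt79, members of each set were present at lower levels in the other library, in unequal proportion. The NTC level was 0.528% of the TIC level for Krt5, 0.953% for Krt42, 4.76% for Krt23, 9.53% for Krt17 and 11.9% for Krt14. The percentage for Krt14 was 22.6 times that for Krt5. For other basal genes it was 0.292% for Acta2 (smooth muscle actin), 0.209% for Myh11 (smooth muscle myosin), 0.557% for Trp63 (a transcription factor of basal epithelium) and 17.98% for Oxtr (the oxytocin receptor). In the other direction, the TIC level was 0.218% of the NTC level for Krt19, 0.764% for Krt18, 2.75% for Krt7 and 3.69% for Krt8, a spread of 16.9 times between Krt19 and Krt8. For the luminal genes Cldn3, a claudin of tight junctions, and Elf5, a factor of the secretory lineage, it was 0.0659% and 0.123%. The other luminal markers were far less different, at 23.8% for Gata3 (a luminal transcription factor), 26.1% for Epcam (an epithelial surface protein) and 44.1% for Cdh1 (E-cadherin), above all 4 luminal keratins. In bulk samples fewer cells of a type and less RNA per cell cannot be told apart.

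**Figure D3:**
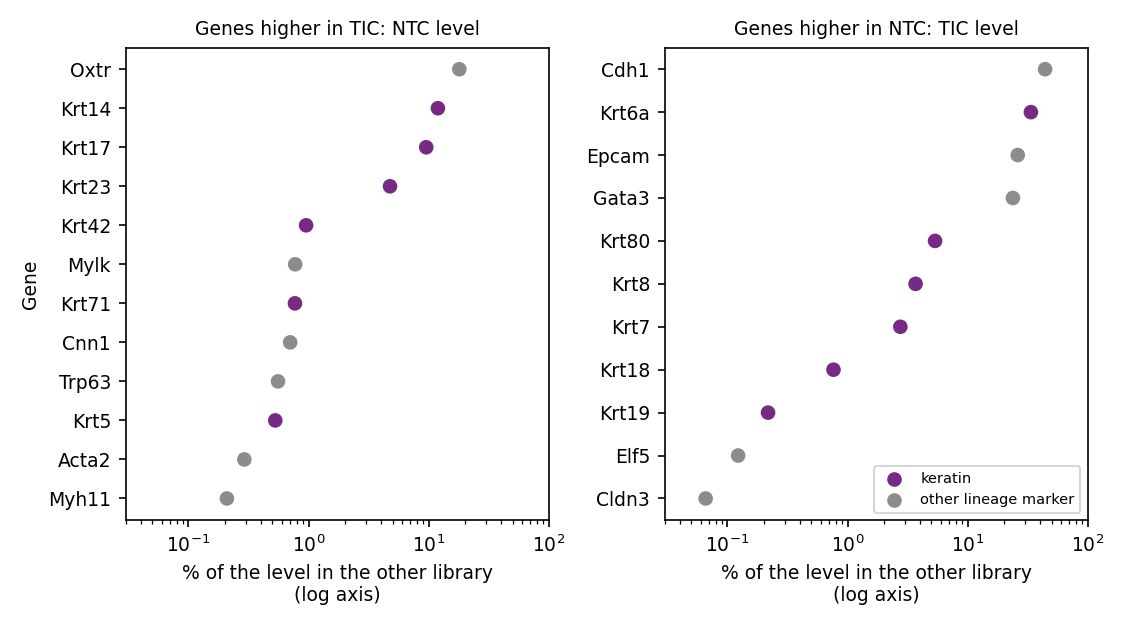
Level in the lower library as a percentage of that in the higher library (log axis), for keratins at least 2-fold different and other basal and luminal markers, with genes higher in TIC on the left and in NTC on the right. Krt5 at 0.528% lies between Acta2 and Trp63, while Krt14 at 11.9% and Krt17 at 9.53% lie far to the right of it.

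The 3 genes listed as keratins of stress and wound healing were low in both libraries and not higher in TIC by 2-fold, unlike Krt17, which was listed with the basal keratins. Krt6a, a type II chain of activated keratinocytes, had 2.44 FPKM in TIC and 7.26 in NTC, a log2 ratio of -1.26, which was -0.72 with a pseudocount of 5. Krt16, its usual type I partner, had 1.04 against 2.26 FPKM and a log2 ratio of -0.67. Krt6b, a close copy of Krt6a, had 0.928 against 0.925 FPKM. These levels are uncertain, because 49.5% of the Krt6a windows and 50.1% of the Krt6b windows occur in other genes. Of the windows of Krt5, which is abundant in TIC, 8.52% occur in other genes and 6.98% in Krt6a. Krt16 shares windows with Gm11597 and with Krt14, which is also abundant in TIC. The longest identical stretch of coding sequence shared by Krt14 and Krt16, 134 bases in GENCODE M21 transcripts, is shown for that reason.
Krt14 and Krt16: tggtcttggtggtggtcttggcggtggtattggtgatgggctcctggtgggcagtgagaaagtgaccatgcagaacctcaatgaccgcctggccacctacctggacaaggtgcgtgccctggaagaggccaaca
Krt14 had a higher level in TIC, the direction opposite to that of Krt16. The part of shared reads in these values was not tested.

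Among the keratins of the upper epidermis, 3 of 8 were measured. Krt79, a type II chain of sebaceous gland and follicle ducts (chromosome 15, 101759763 to 101770755), had 40.8 FPKM in TIC and 23.6 in NTC, a log2 ratio of 0.76, and was the only keratin above 20 FPKM in both libraries. Krt10, the type I chain of spinous cells, had 2.34 against 0.740 FPKM. Its log2 ratio of 0.94 passed 2-fold with a pseudocount of 0.1 (1.54) or with the median of all measured genes set to 0 (1.10). Krt1, the type II partner of Krt10, had 0.724 FPKM in TIC and 0.0247 in NTC, about 33.0 reads against 1.15. Krt80, a type II chain of differentiating epithelia, had 0.136 FPKM against 2.54 FPKM, a log2 ratio of -1.64, which was -0.55 with a pseudocount of 5. The other 4, Krt2, Krt9, Krt77 and Krt78, were at or below 0.261 FPKM in each library.

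Of the keratins listed for the inner root sheath, its companion layer and the hair shaft, only Krt71 was measured. Krt71, a type II chain of the inner root sheath (chromosome 15, 101564380 to 101573528), had 10.2 FPKM in TIC and 0.0788 in NTC, a log2 ratio of 3.38. The NTC value corresponds to about 3.29 reads and the TIC value to about 416. Krt25 and Krt27, type I chains of the same sheath, were listed at 0 in both libraries, and Krt28 had 0.334 against 0.117 FPKM. Krt73, another type II chain of the sheath, had 0.885 against 0.180 FPKM, Krt74 had 0.0697 FPKM and Krt75 0.113 FPKM in TIC with 0 listed in NTC for both, and Krt26 was listed at 0 in both. Of the Krt71 windows, 1.97% occurred in another gene, the longest stretch shared with the coding sequence of Krt5 being 23 bases. The 8 hair follicle markers, Krt71 included, summed to 12.5 FPKM in TIC and 1.28 FPKM in NTC, and 5 of them were listed at 0 in TIC. Trichohyalin (Tchh), which fills inner root sheath cells, had 0.180 against 0.197 FPKM. All 15 keratins of the hair shaft were at or below 0.483 FPKM, the value of Krt39 in TIC, and 8 of them were listed at 0 in both libraries.

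Mucosal and corneal keratins were also low. Krt76, a type II chain of the palate, had 0.610 FPKM in TIC, about 26.2 reads, and was listed at 0 in NTC. Krt4 and Krt13, the pair of the oesophagus, had 0.265 and 0.0421 FPKM in NTC and were listed at 0 in TIC, while Krt12 of the cornea and Krt24 were listed at 0 in both. Krt222, a divergent type I gene, had 0.0368 against 0.0543 FPKM. In all, 20 members were at 0 in the TIC values and 22 in the NTC values, and the 13 members at 0 in both were all of type I. Krt81 and Krt86 of the hair shaft, whose transcripts share 38.0% and 35.6% of their windows with each other, had 0.0116 and 0.0117 FPKM in TIC, about 0.396 and 0.427 reads, which is less than 1 read is worth.

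Along the genome the members lay in 2 clusters. On chromosome 11, 27 type I genes spanned 1037 kb, and on chromosome 15, 23 type II genes and the type I gene Krt18 spanned 682.5 kb. Of the 7 pairs of directly adjacent measured members with a locus of their own, 5 had log2 ratios of the same sign. The same share over all neighbouring genes was not computed, so this count is a description only. The 2 pairs of opposite sign were Krt14 with Krt16 and Krt16 with Krt17, and Krt16 was within 2-fold. Krt15, in the same-sign pair with Krt19, was also within 2-fold. On chromosome 11, Krt15 and Krt19 lay 4.86 kb apart, with log2 ratios of -0.74 and -8.37, and the run that follows went from Krt9 near 0 to Krt14 with 2.99, Krt16 with -0.67, Krt17 with 3.23 and Krt42 with 6.19. Krt17 and Krt42 were 1.89 kb apart and Krt16 and Krt17 7.31 kb. On chromosome 15, Krt80 and Krt7 lay at the first end and Krt8 and Krt18 at the last, all higher in NTC, with Krt5 and Krt71 between them. Krt6a, also higher in NTC, was listed in a joint locus in the interior, between Krt86 and Krt5. Krt8 and Krt18 were 23.9 kb apart with no listed gene between them, and so were Krt5 and Krt71 at 21.1 kb. For 6 members, Krt6a, Krt6b, Krt75, Krt82, Krt84 and Krt85, the tables give a single joint locus, so they have no position of their own.

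**Figure D4:**
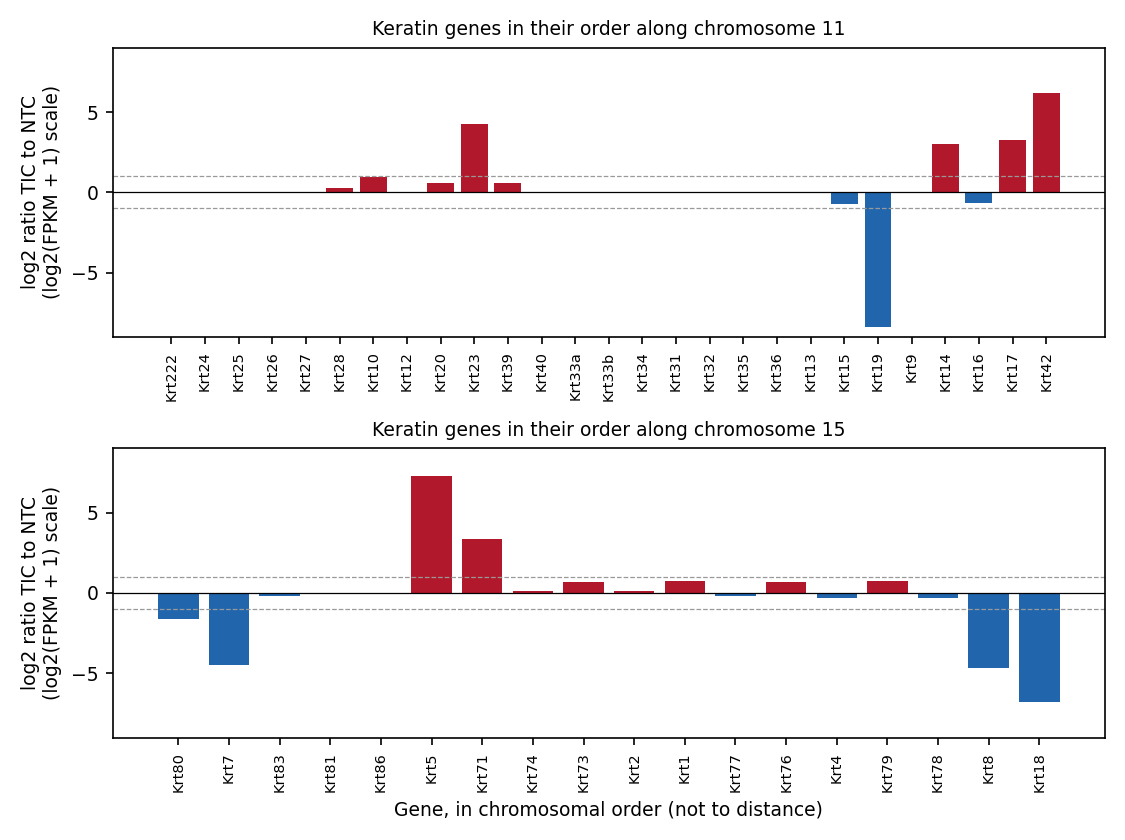
Log2 ratio of TIC to NTC (log2(FPKM + 1) scale) of the keratin genes with a locus of their own, in chromosomal order on chromosome 11 and chromosome 15, with dashed lines at 2-fold. Krt19 at -8.37 stands 2 places from Krt14 at 2.99, and Krt5 and Krt71 stand between Krt7 and Krt8.

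Genes that share the keratins' work were compared next, in 4 lists, each read against the background of 14.6% of all measured genes higher and 13.8% lower in TIC by 2-fold or more. Of 17 other intermediate filament genes, 7 were measured, of which 3 were higher in TIC by at least 2-fold and none lower by as much (median log2 ratio 0.78, against -0.16 over all measured genes). Nestin (Nes) had 38.4 FPKM in TIC and 14.3 in NTC, vimentin (Vim), the filament of mesenchymal cells that basal mammary cells also make, 56.9 against 21.8, and synemin (Synm) 4.79 against 1.84 FPKM. Iffo2 lay within 2-fold at 19.6 against 10.99 FPKM. The nuclear lamins had lower values in TIC, within 2-fold, with 3.62 against 8.09 FPKM for Lmnb2, 18.3 against 31.5 for Lmnb1 and 56.6 against 91.3 for Lmna. Desmin (Des), the filament of muscle, had 0.0303 FPKM in TIC and 0 listed in NTC.

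Proteins that tie keratins to junctions, or bind them, differed by member more than as a list. All 22 were measured, of which 5 were higher in TIC by at least 2-fold, 3 were lower by as much, and the median log2 ratio was 0.17. The share lower is near the 13.8% of all measured genes, and the share higher compares with 14.6%. Besides Col17a1 of the hemidesmosome and Dsp (desmoplakin), with log2 ratios of 7.92 and 3.25, the desmosomal cadherin Dsc3 had 22.2 FPKM in TIC and 0.225 in NTC, and plectin (Plec), which links keratins to hemidesmosomes, had 146.6 against 32.6 FPKM. On the other side were the desmosomal plaque protein Pkp2 with 0.101 against 27.0 FPKM, envoplakin (Evpl) with 0.623 against 4.47 and epiplakin (Eppk1) with 5.03 against 18.7 FPKM. The keratin-organising protein Fam83h lay within 2-fold at 16.6 against 29.9 FPKM. Plakoglobin (Jup), common to all desmosomes, was near equal at 214.3 against 206.5 FPKM.

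Cornified envelope genes, which follow keratins in the dying upper layers of skin, were mostly low. Of 23 found, 6 were measured, of which 2 were higher in TIC by at least 2-fold (14.6% of all measured genes were) and 4 lower by as much (13.8%). Suprabasin (Sbsn) had 1.09 FPKM in TIC and 22.2 in NTC, Sprr1a 1.05 against 20.6, Tgm1 (the cross-linking enzyme transglutaminase) 3.53 against 12.7 and Krtdap 0.124 against 3.41 FPKM. Calml3 had 17.999 against 6.13 FPKM, and loricrin (Lor) 2.80 FPKM in TIC with 0 listed in NTC. Involucrin (Ivl), a defining gene of the list, had 0 listed in TIC and 0.143 FPKM in NTC. The 8 squamous and epidermal markers found, which share genes with this list and with the keratins, summed to 25.1 FPKM in TIC and 32.9 FPKM in NTC.

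Transcription factors of basal and luminal epithelium differed in both directions. All 19 that were found were measured, of which 4 were higher in TIC by at least 2-fold (14.6% of all measured genes were), 7 were lower by as much (13.8%), and the median log2 ratio was -0.79. Trp63 had 450.6 FPKM in TIC and 2.51 in NTC, Id4 146.7 against 0.275 and Klf4 79.7 against 22.0 FPKM, with Snai2 at a log2 ratio of 6.06. In the other direction Elf5 and Ehf had log2 ratios of -7.76 and -7.28, Foxa1, a factor of hormone-responsive luminal cells, had 0.0223 against 12.4 FPKM and Grhl1 7.21 against 54.1 FPKM. Grhl2, a factor of epithelial cells in general, had 36.1 against 43.2 FPKM.

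**Figure D5:**
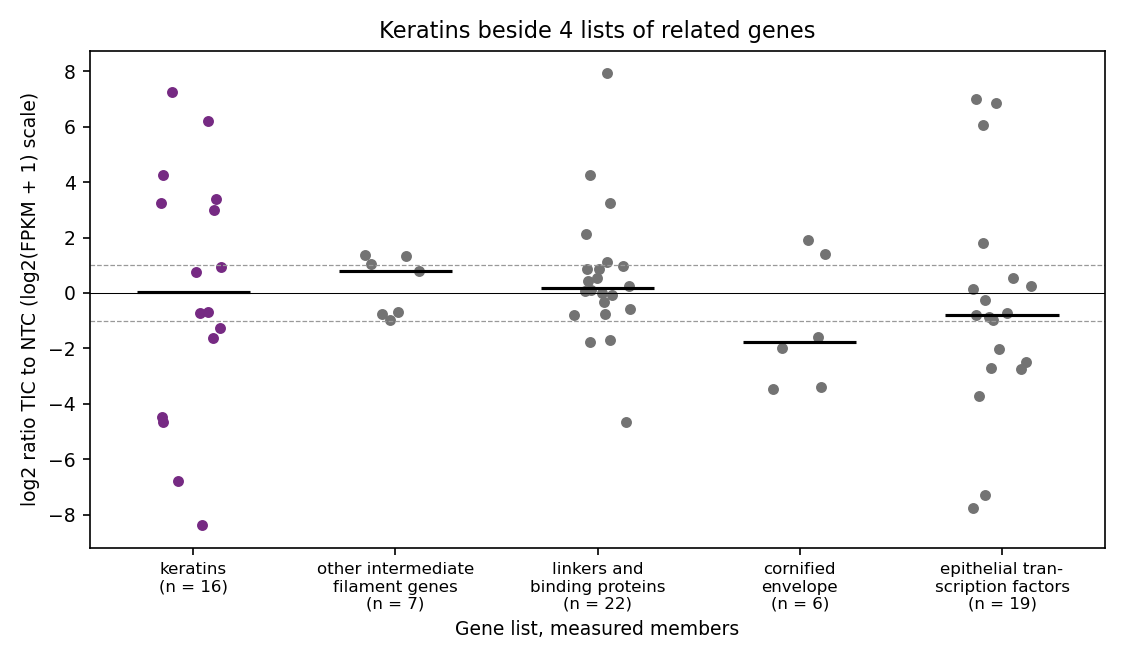
Log2 ratio of TIC to NTC (log2(FPKM + 1) scale) of each measured member of the keratins and of 4 lists of related genes, with the median as a black bar and dashed lines at 2-fold. The 16 keratins reach from -8.37 to 7.25 around a median of 0.05, whereas the 7 other intermediate filament genes stay between -0.98 and 1.36.

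The labelled kinds of cell were set against marker lists of the mammary layers and of other cell types. With keratins left out, all 6 basal markers were above 1 FPKM in TIC and 3 were in NTC, while 3 of 5 luminal markers were above 1 FPKM in TIC and 5 in NTC. Epcam had 153.8 against 589.0 FPKM. Of 7 white blood cell markers the summed level was 4.13 FPKM in TIC and 1.18 FPKM in NTC, and Ptprc and Cd3e were listed at 0 in both. The 5 endothelial markers summed to 3.07 and 0.351 FPKM. The 6 fibroblast markers summed to 171.4 and 2.37 FPKM, of which Dcn (decorin) was 151.8 FPKM in TIC and 1.51 in NTC. Col1a2 had 9.56 against 0.0119 FPKM and Pdgfra 8.83 against 0.513 FPKM, whereas Col1a1, Col3a1 and Lum were at or below 0.573 FPKM in both. The part of fibroblast transcripts in the Vim and Nes values was not tested.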

How the data were processed

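RNA was sequenced from 1 TIC and 1 NTC library. Per the labels' protocols, a small amount of total RNA was amplified before library construction, which can change a gene's share of reads. The values are FPKM as deposited by the authors. Per the submitters' processing notes, TopHat 1.4.0, CASAVA 1.8.2, Cuffdiff, Cufflinks and build mm9 were used, with no roles or settings named. A column heading names a human build, but 50 of the 50 keratins matched in RefSeq GRCm38.p6 lay on the mouse chromosome given, so positions are given as mm9. Locus lengths matched RefSeq for 6724 genes when starts were counted from 0 and 448 when from 1, so 1 was added.

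Ratios used a pseudocount of 1 FPKM and covered 12004 genes whose mean reached 1 FPKM (Python 3.11.15, pandas 2.3.3), and the calculation was tested on simulated data. The members and lists were chosen with earlier results of these data known. Named with both values were keratins with a mean of at least 1 FPKM or above 0.5 FPKM in 1 library, with the others by range or listed value, and up to 4 genes in each direction of each related list. Des, Jup, Grhl2, Ivl, singly named cell type markers and members of the low groups were named after their values were seen. Shared 50-base windows came from the longest coding transcript of 49 members in GENCODE M21, which may differ from the authors' annotation. Alternatives varied the pseudocount, the filter, the centring and the members. Some items are not reported here.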

Additional observations from a re-analysis of the deposited data

How the results depend on the processing

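With 1 library per group no replicate could be left out. No paired analysis was possible because each group had 1 library. The count of keratins at least 2-fold higher in TIC was 3 without the members listed as having similar copies. Of the 6 higher, this left out Krt42, Krt17 and Krt14, with 0.268%, 3.99% and 14.4% of windows in another gene. Other alternatives tried were pseudocounts of 0.1 and 5, no filter, a mean of at least 5 FPKM and centring. Members with over 25% of windows in another gene were also left out. Under each of these the count stayed within 1.5 times of 6, as did the count lower. The number of members and the share over all genes changed with the setting. Without the filter, 6 of 51 were higher and 6 lower, against 8.50% and 7.79% of all genes. With a pseudocount of 5, 4 of 16 were lower, against 7.67% of measured genes. The median log2 ratio was 2.99 among the 11 keratins with a mean of at least 5 FPKM, because low members left the set. It changed sign to -0.05 with a pseudocount of 0.1 and to -0.74 without the members listed as having similar copies. Without members with over 25% of windows in another gene it was 0.94, so its direction is not fixed. The ratio of type I to type II sums in TIC was 0.265 without the members listed as having similar copies. It was 6.29 without the highest keratin of each type. In NTC it was 8.02 without the highest of each type and 22.4 without members with over 25% of windows in another gene. The last alternative was chosen after seeing the data. Of 21 named keratins, a pseudocount of 5 took Krt80 and Krt6a inside 2-fold, and a pseudocount of 0.1 took 6 outside it (Krt10, Krt16, Krt20, Krt73, Krt1 and Krt76). Low levels rest on few reads, in NTC about 3.63 for Krt28 at 0.117 FPKM and 4.59 for Krt83 at 0.137 FPKM. The data hold no measure of variation between animals or sorts.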

Other observations

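Keratin-associated protein genes (Krtap), which encode the matrix between hair keratins and were no members, were low where a value was listed. Of 51, 49 were listed at 0 in both libraries, and the highest value was 0.0365 FPKM, in TIC. The similarly named Krtcap2, a subunit of the enzyme that attaches sugars to new proteins, had 68.8 FPKM in TIC and 99.4 in NTC, and Krtcap3 had 12.2 against 15.6 FPKM. The pseudogene Krt72-ps was listed at 0 in both.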
